A study of Mus musculus with 11 samples.

Results

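The genes described here are 38 markers of brain blood vessels, taken by symbol from a list of endothelial, blood-brain barrier and pericyte genes without use of their measured values. They fall into 23 genes of endothelial cells (19 receptors and surface or secreted products, and 4 transcription factors), 10 genes of the barrier (3 tight junction genes and 7 transporters) and 5 genes of pericytes. All 38 matched 1 identifier each among the 52550 genes of the count table, and all 38 passed a filter on low counts that left 15375 genes.

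Endothelial cells line the vessels of the brain, where tight junctions seal the gaps between them and selective carriers move nutrients in and foreign compounds out. Pericytes sit on the outer face of the capillaries, are drawn there by PDGF-B from endothelial cells, and help to form and keep the barrier. Growth and stability of these vessels depend on VEGF receptors, on the angiopoietin receptor Tek and its partner Tie1, and on ETS and SOX family transcription factors.

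RNA with a poly(A) tail was sequenced from punches of the nucleus accumbens shell, in the ventral striatum, of 11 mice of a mixed CBA/C57BL6J/129svEmx background, all 8 weeks old. The study concerned weaker signalling by the retinoic acid receptor Rarb together with a mutation that causes Huntington disease, carried by the R6/1 line, whose transgene is a fragment of human huntingtin. Libraries are labelled by an animal code, such as m61, without a genotype, so the 11 libraries form no groups here. No difference between genotypes was computed, and the variation described below holds genotype, animal, dissection and library preparation together.

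Totals ran from 24840981 (m61) to 48825783 (m49) counts, and all levels are CPM, counts normalised to library size after scaling by edgeR's trimmed mean of M values. At these depths 3 counts were worth 0.0619 to 0.133 CPM, so that only Pglyrp1, with a lowest count of 24 in any library, and Nostrin, with 27, were measured on few reads. The library m61 stood apart from the other 10, with the smallest total, the highest mitochondrial share of counts (7.21%, against 2.90% in m74) and the lowest value of 25.5% of all genes tested. Markers of striatal projection neurons were present in all libraries, with Ppp1r1b between 438 and 1352 CPM, Drd1 between 45.1 and 171 CPM and Drd2 between 41.7 and 136 CPM. Slc17a7, a marker of cortical excitatory neurons, lay between 636 CPM (m115) and 2118 CPM (m61). Per kilobase of exon its median was 215 CPM, against 221 CPM for Ppp1r1b, so this cortical marker was about as abundant as the striatal one. In m73 Slc17a7 was at 1159 CPM and Ppp1r1b at 438 CPM, and in m44 they were at 1056 and 1352 CPM. How much cortical tissue each library held, and its part in the results below, was not tested. In bulk tissue, fewer vessel cells and less RNA per vessel cell cannot be told apart.

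Promoter sequences are shown for the genes of the 3 pairs that varied most alike among those with 1 promoter entry each, Slc2a1 with Mfsd2a, Flt1 with Slco1c1 and Cd34 with Mfsd2a, because these pairs recur in the results. Each runs 5′ to 3′ from 250 bases before to 50 bases after the RefSeq start of transcription in GRCm38.p6, on the strand of the gene, and capitals mark GGAA or TTCC, the core that ETS factors such as Erg and Ets1 bind, on either strand.
Slc2a1, chr4:119108495-119108794, plus strand: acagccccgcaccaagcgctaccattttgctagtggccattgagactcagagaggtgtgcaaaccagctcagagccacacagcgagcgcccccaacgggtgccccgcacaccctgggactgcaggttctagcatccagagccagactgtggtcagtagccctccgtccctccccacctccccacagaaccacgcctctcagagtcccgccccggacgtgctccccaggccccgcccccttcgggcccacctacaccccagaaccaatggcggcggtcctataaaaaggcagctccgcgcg
Mfsd2a, chr4:122961139-122961438, minus strand: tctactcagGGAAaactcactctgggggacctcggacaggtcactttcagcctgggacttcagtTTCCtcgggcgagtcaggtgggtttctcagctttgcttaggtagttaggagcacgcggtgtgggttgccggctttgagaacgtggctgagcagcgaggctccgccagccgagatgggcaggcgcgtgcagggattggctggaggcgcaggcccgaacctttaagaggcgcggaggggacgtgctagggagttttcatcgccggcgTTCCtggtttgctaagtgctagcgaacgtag
Flt1, chr5:147725962-147726261, minus strand: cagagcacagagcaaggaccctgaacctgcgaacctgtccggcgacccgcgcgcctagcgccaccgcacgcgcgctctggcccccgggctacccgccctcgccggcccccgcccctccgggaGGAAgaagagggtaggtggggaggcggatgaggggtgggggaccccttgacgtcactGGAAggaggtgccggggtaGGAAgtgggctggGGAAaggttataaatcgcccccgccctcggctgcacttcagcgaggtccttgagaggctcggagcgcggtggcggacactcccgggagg
Slco1c1, chr6:141524104-141524403, plus strand: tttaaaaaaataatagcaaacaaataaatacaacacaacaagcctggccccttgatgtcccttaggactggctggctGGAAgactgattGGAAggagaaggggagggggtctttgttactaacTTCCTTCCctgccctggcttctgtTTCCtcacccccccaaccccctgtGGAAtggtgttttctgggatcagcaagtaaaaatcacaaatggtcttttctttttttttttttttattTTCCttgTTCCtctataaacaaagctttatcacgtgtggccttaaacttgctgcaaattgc
Cd34, chr1:194938571-194938870, plus strand: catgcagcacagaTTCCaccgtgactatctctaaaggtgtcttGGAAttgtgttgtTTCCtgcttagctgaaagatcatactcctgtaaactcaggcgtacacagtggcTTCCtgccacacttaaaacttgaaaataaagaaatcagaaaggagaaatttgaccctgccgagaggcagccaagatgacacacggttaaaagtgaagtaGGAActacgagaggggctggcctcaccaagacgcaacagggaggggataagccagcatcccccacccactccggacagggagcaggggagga

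The ETS core had 0 matches in the Slc2a1 window, 3 in Mfsd2a, 4 in Flt1, 5 in Cd34 and 8 in Slco1c1. The core is short, and 96.0% of all 32851 RefSeq promoters of the same length held it, against 30 of the 32 promoters (93.8%) of the 26 members with an entry. The longer form CAGGAAG stood in 7 of the 32 (21.9%) and in 13.3% of all promoters, and CCGGAAG stood in 1 of 32 (3.13%) against 8.86%. The SOX core ACAAT stood in 7 of the 32 (21.9%) against 31.0%, and TATAAA in 6 of the 32 (18.8%) against 13.6%. All motifs were searched on both strands, the longer ETS forms contain the core, and promoters of a gene with several starts can overlap. Slc2a1, Flt1 and Slco1c1 each held 1 TATAAA match, and the matches describe these letters only.

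Levels were compared between genes per kilobase of annotated exon, which lowers genes with many alternative exons. On that scale the highest median belonged to Itm2a, a membrane protein abundant in brain endothelium, at 33.0 CPM per kb. It was followed by 2 pericyte genes, Vtn, the secreted adhesion protein vitronectin (26.0), and Rgs5, a regulator of G-protein signalling (21.2), and by Slc2a1, the glucose carrier of the barrier (20.97). Over libraries Itm2a ran from 29.2 to 45.0, Vtn from 19.8 to 39.2, Rgs5 from 18.8 to 27.0 and Slc2a1 from 18.2 to 28.4, so the range of Itm2a overlapped that of Vtn and lay above those of Rgs5 and Slc2a1, while the last 3 overlapped each other. Next came the barrier genes Cldn5 at 16.2 and Slc7a5 at 15.7, and the surface genes Ly6a at 14.1 and Ly6c1 at 11.7, whose ranges also overlapped. The lowest medians were those of Vwf at 0.537, Abcc9 at 0.717, Pglyrp1 at 0.772 and Kdr at 0.986 CPM per kb, again with overlapping ranges. The 4 endothelial transcription factors lay between 1.08 for Sox17 and 2.92 for Sox18.

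**Figure D1:**
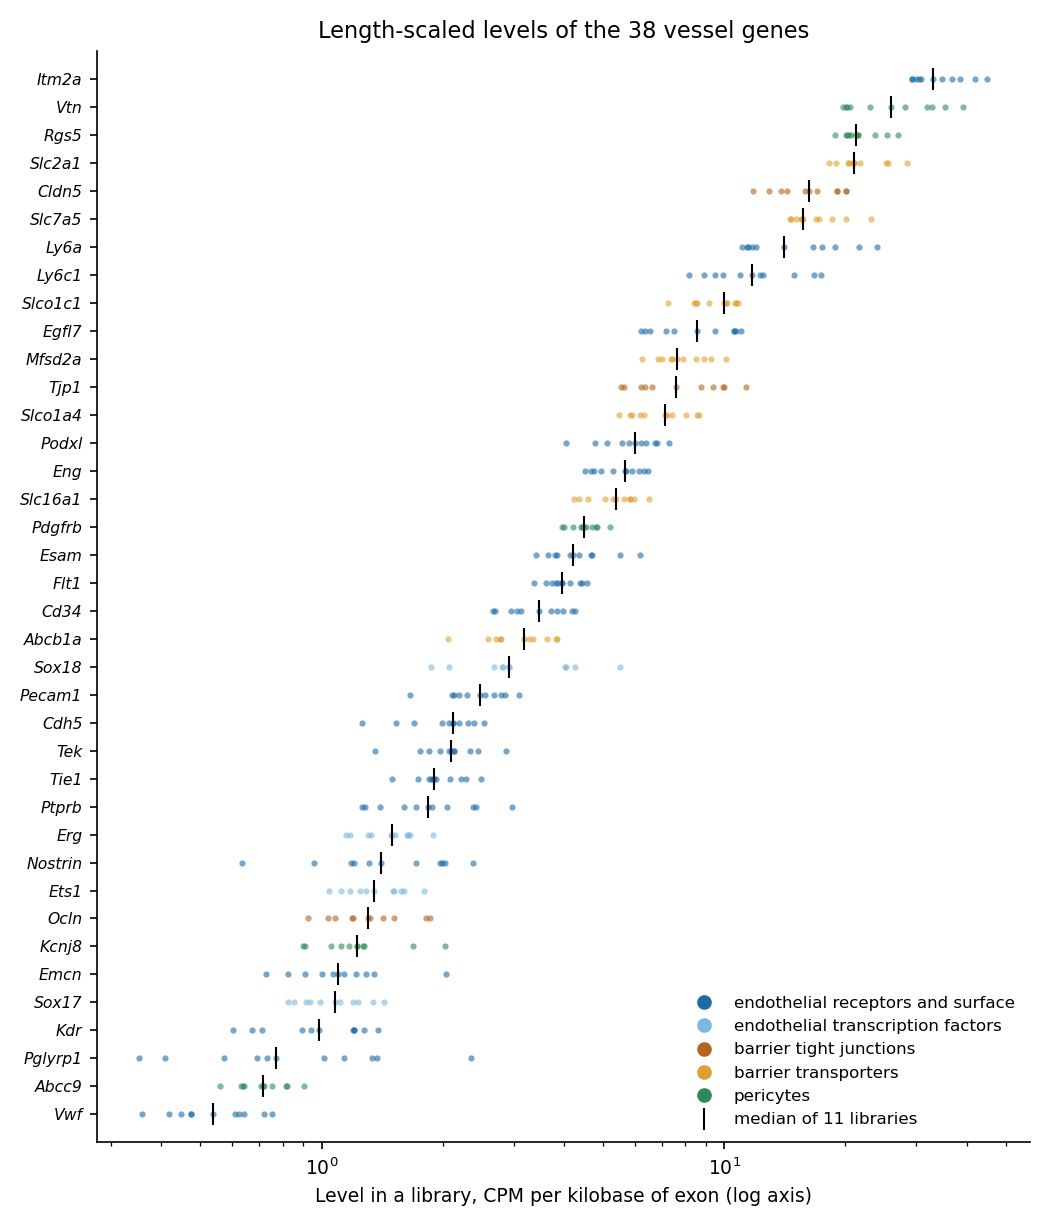
Level of each of the 38 genes in CPM per kilobase of exon (log axis), with 1 point for each of the 11 libraries and a bar at the median, coloured by class and ordered by median. Itm2a (median 33.0) leads the surface genes, Vtn (26.0) and Rgs5 (21.2) the pericyte genes and Slc2a1 (20.97) the transporters.

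Most of the 38 genes varied less between libraries than the median gene. Spread was measured as the biological coefficient of variation, the part of the variation between libraries beyond counting noise. Its median was 0.170 over the 38 members and 0.201 over all 15375 genes tested, with 14 members above the latter value. In 14 of the 38 the highest library had at least 2 times the level of the lowest, while 48.6% of all genes tested reached that ratio. By class this held for 11 of 23 endothelial genes, 2 of 10 barrier genes and 1 of 5 pericyte genes, and for none (0 of 7) of the transporters. Median spread was 0.190 for the endothelial receptors and surface genes, 0.164 for the transcription factors, 0.212 for the tight junction genes, 0.139 for the transporters and 0.125 for the pericyte genes.

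**Figure D2:**
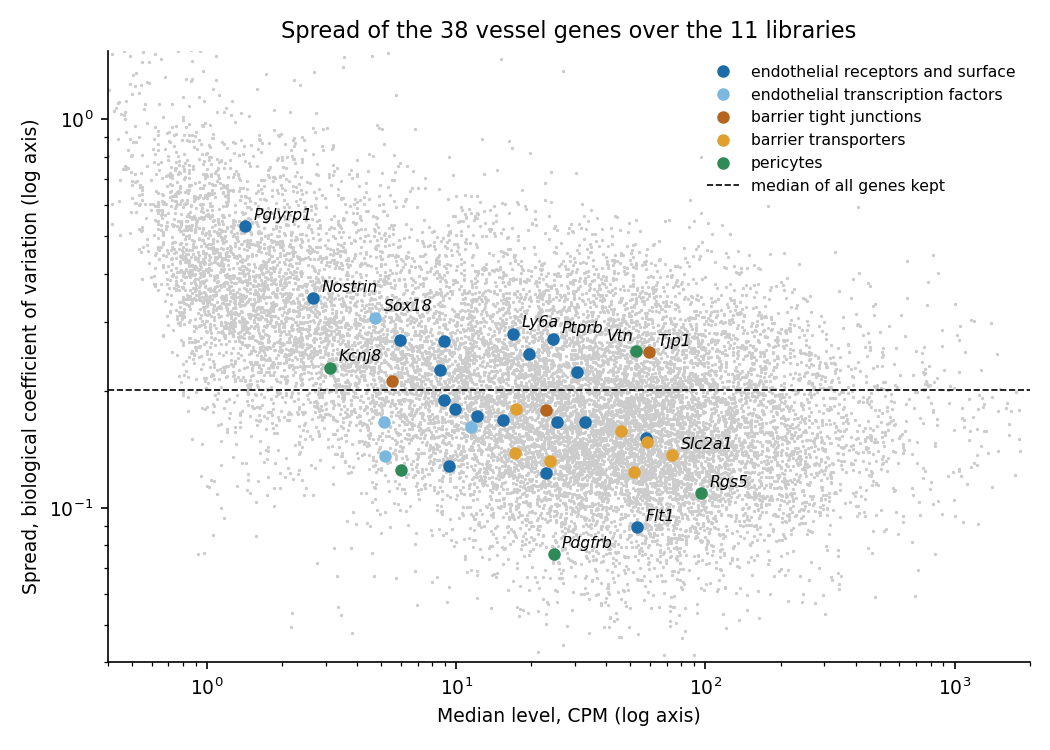
Spread between libraries (biological coefficient of variation) against the median level in CPM (both axes log), with the 38 genes coloured by class over all genes tested in grey (grey points beyond the axes are not drawn) and a dashed line at the median spread of all genes tested (0.201). Pglyrp1 has the largest spread of the 38 (0.530) and Pdgfrb the smallest (0.0760).

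Among the endothelial receptors for vessel growth factors, Flt1 was the steadiest. It is the VEGF receptor that also acts as a decoy (chromosome 5, 147561604 to 147726011, mm10). Flt1 had a lowest level of 45.5 CPM (m101), a median of 53.3 CPM and a highest level of 61.6 CPM (m49), a ratio of 1.35 with a spread of 0.0891. Kdr, the main signalling receptor for VEGF, ran from 5.45 CPM (m101) through a median of 8.91 CPM to 12.5 CPM (m44), a ratio of 2.29. Both receptors were lowest in m101, and Kdr was also low in m83 (6.06 CPM) and m89 (6.42 CPM), where Flt1 was at 53.5 and 51.5 CPM. Tek, the receptor for angiopoietins, ran from 6.41 CPM (m101) to 13.5 CPM (m57) with a median of 9.89 CPM, and its partner Tie1 from 7.34 CPM (m47) to 12.2 CPM (m74) with a median of 9.38 CPM. Ptprb, the endothelial phosphatase that acts on Tek, had a lowest level of 16.8 CPM (m83), a median of 24.5 CPM and a highest level of 39.5 CPM (m57). Eng, a co-receptor for TGF-beta family ligands, stayed between 18.3 CPM (m101) and 26.2 CPM (m49).

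The junction and adhesion genes of the endothelial surface differed in which library stood out. Cdh5, the cadherin of endothelial junctions, was lowest in m101 at 5.31 CPM and highest in m57 at 10.6 CPM, around a median of 8.90 CPM. Pecam1, an adhesion molecule of endothelial junctions, ran from 10.3 CPM (m89) to 19.3 CPM (m49) with a median of 15.4 CPM. Esam, a junction adhesion molecule, ran from 9.79 CPM (m101) to 17.7 CPM (m61) with a median of 12.1 CPM. Emcn, a surface sialomucin of capillaries and veins, ran from 3.94 CPM (m47) to 11.04 CPM (m61) with a median of 5.93 CPM. The high value in m61 set much of this range, since the other 10 libraries reached 7.30 CPM (m74) and the spread of 0.270 became 0.184 without m61. The sialomucins Cd34 (19.4 to 31.0 CPM) and Podxl (22.2 to 40.1 CPM) had smaller ratios, 1.60 and 1.80.

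The largest and the next largest ratio of all 38 members came from genes with few reads. Pglyrp1, a peptidoglycan recognition protein expressed in brain endothelium, ran from 0.648 CPM (m115) through a median of 1.42 CPM to 4.31 CPM (m101), a ratio of 6.65. The next highest library was m89 at 2.52 CPM, and the spread of 0.530 became 0.425 without m101. Nostrin, which binds endothelial nitric oxide synthase, ran from 1.197 CPM (m61) to 4.50 CPM (m49) with a median of 2.66 CPM, and its spread was 0.347 (0.280 without m61). Vwf, the clotting protein stored in endothelial cells, ran from 5.76 CPM (m61) to 12.1 CPM (m83) with a median of 8.62 CPM.

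Ly6c1 and Ly6a, GPI-anchored surface proteins encoded near each other on chromosome 15, were highest in the same libraries. Ly6c1 ran from 13.7 CPM (m115) to 29.1 CPM (m74) with a median of 19.6 CPM. Ly6a ran from 13.3 CPM (m57) to 28.8 CPM (m74) with a median of 17.0 CPM. In both, m74 and m61 held the 2 highest values, and reads of these genes may be shared with close copies in the Ly6 family. Egfl7, a secreted endothelial factor, ran from 22.3 CPM (m115) to 39.5 CPM (m74) with a median of 30.6 CPM, and 7.37% of its exon length overlaps another gene model on the same strand.

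Of the transcription factors, Erg, an ETS factor of mature endothelium, ran from 3.99 CPM (m74) to 6.56 CPM (m115), and Ets1 from 8.82 CPM (m61) to 15.3 CPM (m49). Sox17, a SOX factor of arterial endothelium, ran from 3.95 CPM (m44) to 6.83 CPM (m73), with 16.9% of its exon length overlapped by a gene model on the opposite strand. Sox18, its relative, was the most variable of the 4, at 3.03 CPM in m101, a median of 4.73 CPM and 8.91 CPM in m61, with a spread of 0.308 (0.259 without m61). The libraries at the low and high ends differed for each of the 4 genes.

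The 3 tight junction genes did not move alike. Cldn5, the main claudin of brain endothelium (chromosome 16, 18776847 to 18778262, mm10), ran from 16.7 CPM (m101) through a median of 22.9 CPM to 28.4 CPM (m74). Tjp1, the scaffold ZO-1, ran from 43.3 CPM (m83) through 59.2 CPM to 88.3 CPM (m57), a ratio of 2.04. Ocln, the tight junction protein occludin, ran from 3.91 CPM (m83) through 5.52 CPM to 7.85 CPM (m115), a ratio of 2.01. Tjp1 and Ocln were both lowest in m83, where Cldn5 was at 28.4 CPM and close to its highest level. Tjp1 and Ocln are also expressed by cells outside vessels.

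The 7 transporters were steady, with ratios between 1.49 and 1.86. Slc2a1 (chromosome 4, 119108711 to 119137983) ran from 63.7 CPM (m115) through a median of 73.5 CPM to 99.7 CPM (m74). Mfsd2a, the carrier of lysolipids that holds down transcytosis (chromosome 4, 122946850 to 122961188), ran from 14.1 CPM (m47) through 17.2 CPM to 22.7 CPM (m74). Both were highest in m74, and m49 and m61 held the next 2 places in both.
Slc7a5, which carries large neutral amino acids, ran from 54.0 CPM (m47) to 85.8 CPM (m49). Slc16a1, which carries lactate and ketone bodies, ran from 18.8 CPM (m49) to 28.9 CPM (m61). The library m49 was thus highest for Slc7a5 and lowest for Slc16a1. Abcb1a, the drug exporter P-glycoprotein, ran from 11.3 CPM (m61) to 20.997 CPM (m57) with a median of 17.4 CPM, and its reads may be shared with its close copy Abcb1b.

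Slco1c1, a carrier of thyroxine, and Slco1a4, a carrier of organic anions, are encoded close together on chromosome 6 (141524368 to 141570177 and 141805440 to 141856199) and did not follow each other. Slco1c1 ran from 37.7 CPM (m101) through 51.7 CPM to 56.2 CPM (m57). Slco1a4 ran from 35.1 CPM (m49) through 45.6 CPM to 55.5 CPM (m89). Slco1a4 was high in m101 (51.5 CPM), where Slco1c1 was lowest, and Slco1c1 was high in m49 (55.1 CPM), where Slco1a4 was lowest. Over the 11 libraries Pearson's r between them was -0.60 (Spearman's rho -0.60), a description of libraries that share depth and scaling.

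Of the pericyte genes, Pdgfrb, the receptor for PDGF-B, had the smallest spread of all 38 members (0.0760), with 21.7 CPM in m73, a median of 24.6 CPM and 28.5 CPM in m74. Only 2.13% of the genes tested had a smaller spread. Rgs5 ran from 85.4 CPM (m74) through 96.3 CPM to 123 CPM (m61), so the library with the most Pdgfrb had the least Rgs5. Vtn ran from 40.1 CPM (m47) through 52.8 CPM to 79.7 CPM (m61), and m83 (71.7 CPM) and m74 (66.6 CPM) held the next places. Kcnj8 and Abcc9 encode the pore and the regulatory subunit of the KATP channel of pericytes and neighbour each other on chromosome 6. Kcnj8 ran from 2.29 CPM (m115) through 3.12 CPM to 5.17 CPM (m74), and Abcc9 from 4.68 CPM (m49) through 6.001 CPM to 7.57 CPM (m57). The spread of Kcnj8, 0.229, became 0.144 without m74. The pair had r = -0.42 (rho -0.44) over the 11 libraries, which became 0.095 once a straight line on the length contrast described below was removed. The genes of the channel were thus highest in different libraries, and Kcnj8 was lowest where Abcc9 was near its median (m115, 6.31 CPM).

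No library was the lowest, or the highest, in all classes, although m61 and m74 lay above 0 and m47 and m101 below 0 for the endothelial, barrier and pericyte genes alike. Averaged over the genes of a class, the log2 deviation from the median level ran from -0.15 (m47) to 0.14 (m74) for the endothelial genes, from -0.17 (m101) to 0.13 (m57) for the barrier genes and from -0.15 (m115) to 0.26 (m61) for the pericyte genes. On that scale m101 was lowest for the transcription factors (-0.21) and the tight junction genes (-0.31). Of the 38 genes, 10 had their lowest level in m101, 8 of them endothelial, while 9.43% of all genes tested had theirs there. The library m74 was highest for 9 members, against 12.1% of all genes, and m61 was lowest for 4, against 25.5%.

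**Figure D3:**
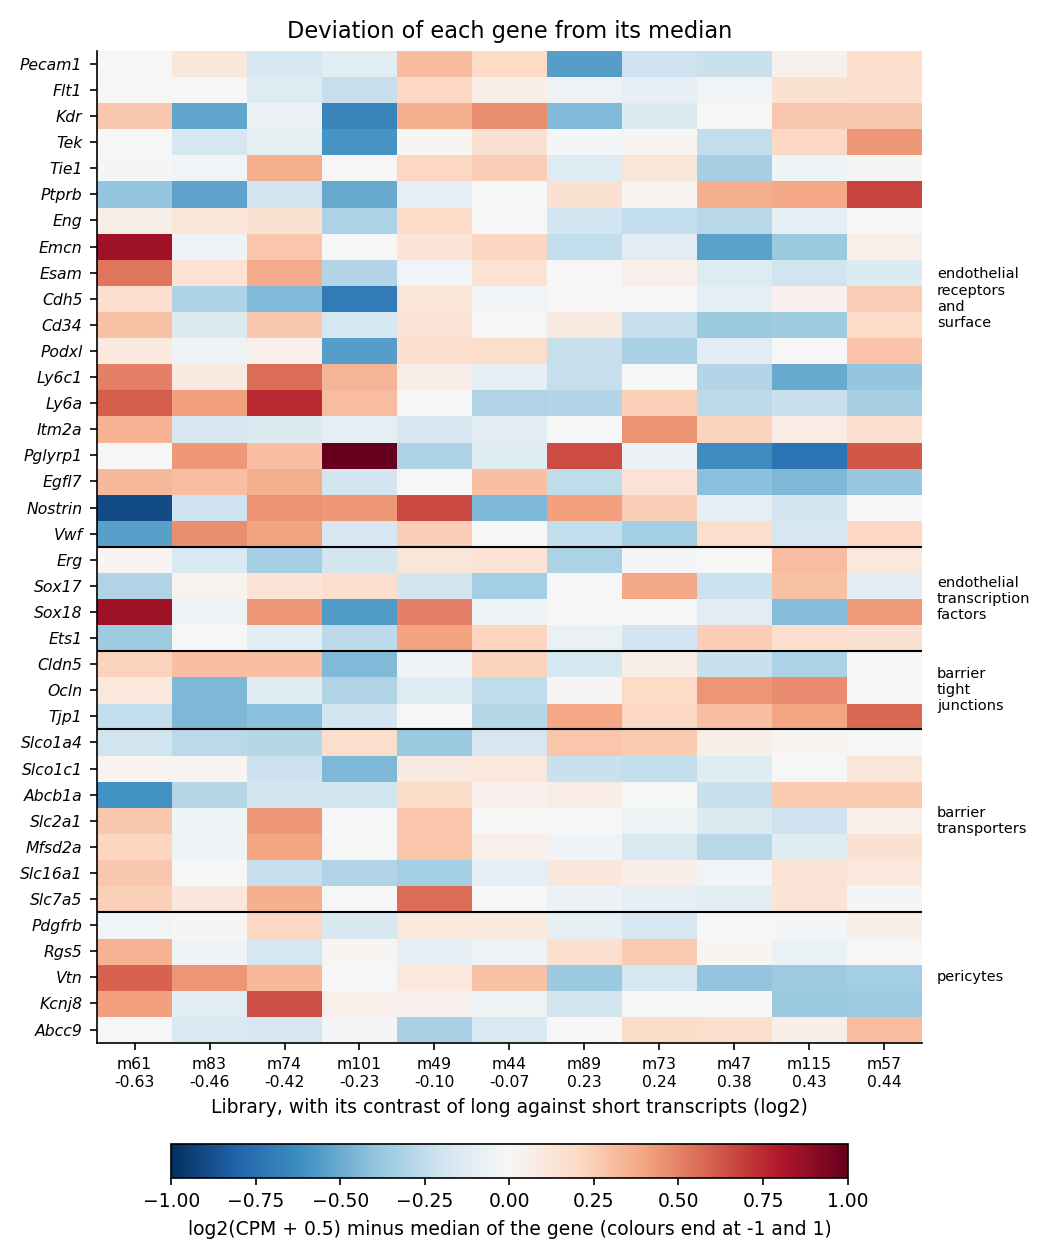
Log2 deviation of each of the 38 genes from its own median over the libraries, for each of the 11 libraries, with libraries ordered by the length contrast and genes grouped by class; colours end at the limits of the scale. The column m101 is low for much of the endothelial class (10 of the 38 genes have their lowest level there), and m61 and m74 are high for Vtn, Ly6a and Ly6c1.

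Libraries of this series differ in how long transcripts compare with short ones, which was measured as a length contrast, taken over genes other than the members: the 10% with the longest exons gave 1 median log2 deviation, the 10% with the shortest another, and the second was subtracted from the first. The contrast ran from -0.63 in m61 through -0.07 in m44 to 0.44 in m57. A slope on it is the log2 change in the level of a gene per 1 unit of the contrast, tested with edgeR's quasi-likelihood test and Benjamini-Hochberg adjustment over all genes tested. Of the 38 members 9 passed an adjusted p of 0.05, where 32.9% of all genes tested did, with 3 higher where long transcripts were high (background 18.1%) and 6 lower (background 14.9%). These were 6 of 23 endothelial genes, 2 of 10 barrier genes and 1 of 5 pericyte genes. What sets the contrast, and its part in the differences between the libraries, was not tested.

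The genes that rose with the contrast were Ptprb, by 0.92 per unit (SE 0.15, edgeR adjusted p = 0.000605), Tjp1, by 0.87 (SE 0.13, edgeR adjusted p = 0.000329), and Abcb1a, by 0.53 (SE 0.17, edgeR adjusted p = 0.0266). Ptprb and Tjp1 were highest in m57, where the contrast was highest, and lowest in m83. The genes that fell with it were led by Vtn, with a slope of -0.91 (SE 0.12, edgeR adjusted p = 0.000162). Ly6a (-0.88, SE 0.18, edgeR adjusted p = 0.00245) and Ly6c1 (-0.86, SE 0.15, edgeR adjusted p = 0.000845) fell nearly as steeply. Emcn (-0.81), Egfl7 (-0.70) and Esam (-0.49) also passed, at edgeR adjusted p = 0.0148, 0.00507 and 0.0332. Without m61 the slopes of Emcn (-0.56), Esam (-0.37) and Abcb1a (0.35) no longer passed, at edgeR adjusted p = 0.0930, 0.128 and 0.146. Esam also did not pass without m115, m47, m57 or m74, and Abcb1a without m115, m57 or m83. Over the 11 leave-one-out fits the adjusted p ran from 0.00694 to 0.0930 for Emcn, from 0.00819 to 0.128 for Esam and from 0.0113 to 0.146 for Abcb1a.

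The direction of the slopes followed the length of the members. Of the 18 members with less exon length than the median gene tested (4355 bp), 13 had a slope below 0 and the median slope was -0.37. Of the 20 longer members, 8 had a slope below 0 and the median was 0.11. Across the 38 genes the slope and log2 exon length had r = 0.59 (rho 0.57), and across 15355 genes with a length r = 0.47 (rho 0.57). Genes are not independent replicates, and the contrast is itself built on length. Cldn5, with the shortest exon length of the barrier genes (1416 bp), had a slope of -0.41 that did not pass (SE 0.18, edgeR adjusted p = 0.0910), and Flt1 (13504 bp) one of 0.12 (edgeR adjusted p = 0.507).

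**Figure D4:**
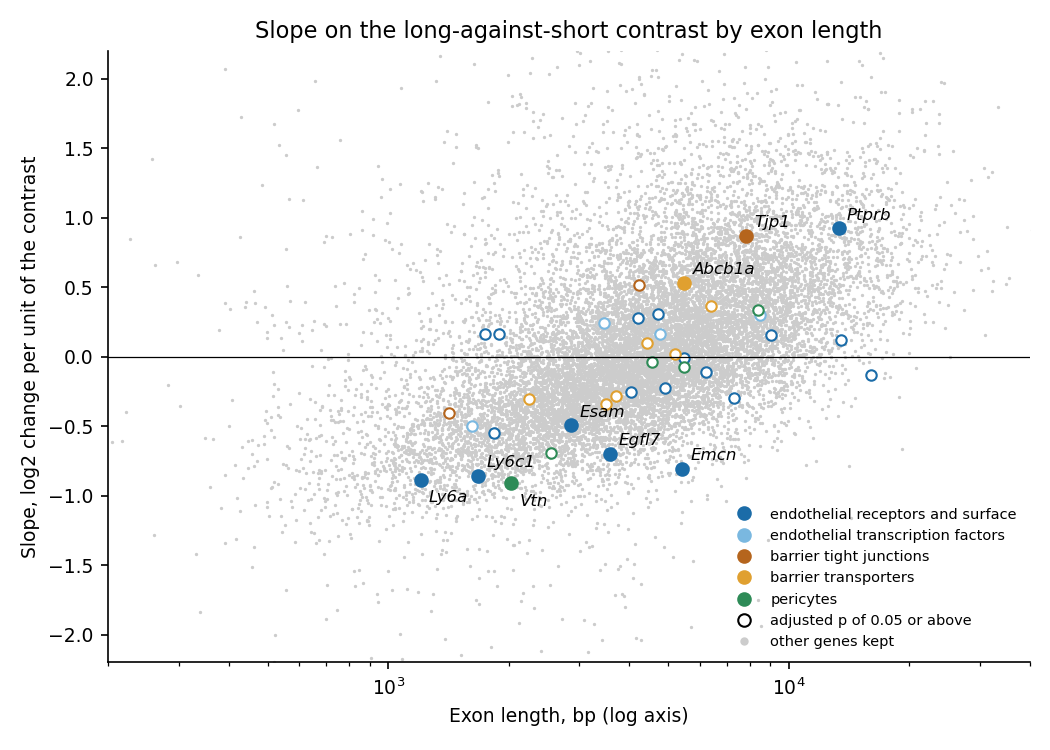
Slope of each gene on the length contrast (log2 change per unit) against its exon length in base pairs (log axis), with the 38 genes coloured by class, open where the adjusted p was 0.05 or above, and other genes tested in grey; grey points beyond the axes are not drawn. Ptprb (0.92) and Tjp1 (0.87) lie at the top among long genes, and Vtn (-0.91), Ly6a (-0.88) and Ly6c1 (-0.86) at the bottom among short ones.

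The mitochondrial share of counts, from 2.90% to 7.21%, was tested in the same way. No member (0 of 38) passed with edgeR, where 0.104% of all genes tested did, and 2 members (Ptprb and Abcb1a) had an unadjusted edgeR p under 0.05, as did 14.8% of all genes tested. DESeq2 also gave 0 of 38 adjusted and 2 unadjusted, where it called 4.08% of all genes adjusted and 17.7% unadjusted. Without m74 the edgeR fit called 5 members (Vtn, Ly6a and Ly6c1 higher with the share, Ptprb and Abcb1a lower) among 10.7% of all genes tested, and without m61 it called 0 genes.

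Members of a class shared little of their variation over the libraries. Of all 703 pairs of members, 400 (56.9%) had a Pearson's r of log2 levels above 0, with a median of 0.11, against 0.00 over all pairs of genes tested. All of these correlations are over the same 11 libraries, which share depth, scaling and the length contrast, and are given as descriptions. The median was 0.11 between endothelial genes (253 pairs), 0.05 between barrier genes (45 pairs) and 0.04 between pericyte genes (10 pairs). The last was -0.40 without m61 and -0.16 without scaling of library sizes. Endothelial and barrier genes had a median of 0.17 with each other (230 pairs). Between endothelial and pericyte genes the median was 0.06, and between barrier and pericyte genes -0.03.

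Single pairs stood far from those medians. They were chosen after their values were seen, and how often pairs of all genes tested reach such values is not given here. Slc2a1 and Mfsd2a, the glucose and lysolipid carriers, had r = 0.93 (rho 0.93), and 0.85 without m74 and m49, the libraries farthest from the median of Slc2a1. Cd34 followed both, with r = 0.89 to Mfsd2a and 0.86 to Slc2a1. Flt1 and Slco1c1 had r = 0.90 (0.83 without m101 and m49), and Podxl and Slco1c1 r = 0.91 (0.77 without m101 and m73). Flt1 and Kdr, the 2 VEGF receptors, had r = 0.74, and 0.56 without m101 and m49. Tek and Cdh5 had r = 0.82, which was 0.50 without m101 and m57.
Eng and Slco1a4 ran against each other, with r = -0.92 (rho -0.92), and so did Pdgfrb and Slco1a4 (r = -0.81), while Pdgfrb and Eng had r = 0.80. Vwf and Rgs5 had r = -0.82. Within the pericyte class Pdgfrb and Rgs5 had r = -0.67, and -0.40 without m74 and m73.

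Some of these pairs also shared the length contrast. After a straight line on the contrast was taken from each gene, an alternative chosen after seeing the data, Ptprb and Tjp1 went from r = 0.88 to 0.30 and Vtn and Tjp1 from -0.92 to -0.35. Ly6a and Ly6c1 went from 0.91 to 0.67, and Vtn and Egfl7 from 0.90 to 0.68. Slc2a1 with Mfsd2a (0.90), Flt1 with Slco1c1 (0.94), Egfl7 with Cldn5 (0.81 from 0.85) and Eng with Slco1a4 (-0.89) moved by less than 0.05. The median over pairs of endothelial genes became 0.20 and that over pairs of pericyte genes -0.05.

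**Figure D5:**
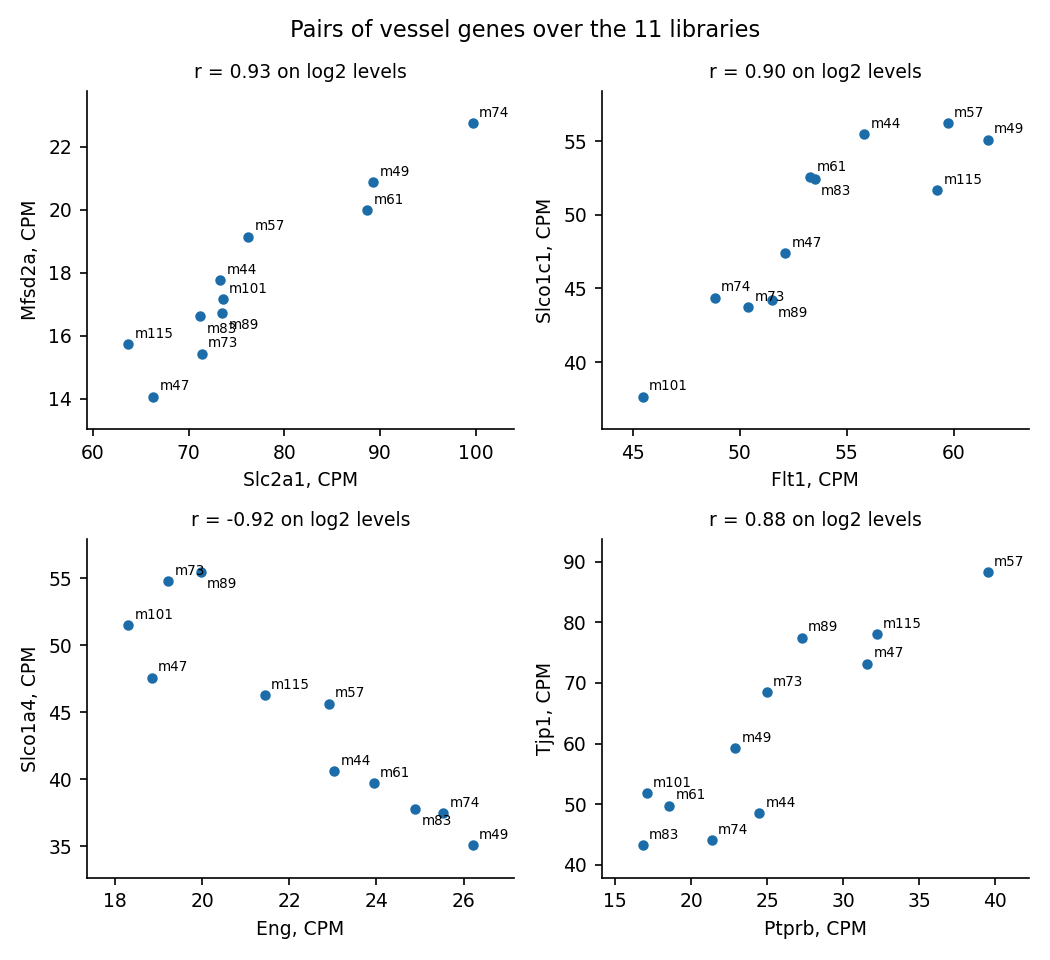
Levels in CPM of the genes of 4 pairs (linear axes that do not start at 0), with 1 labelled point for each of the 11 libraries. Slc2a1 and Mfsd2a (r = 0.93) and Flt1 and Slco1c1 (r = 0.90) rise together, as do Ptprb and Tjp1 (r = 0.88), and Eng and Slco1a4 (r = -0.92) run against each other.

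Genes other than the members were ranked by how closely they followed the mean of a class. The members were left out, so the ranking cannot show whether vessel genes follow a class most closely. Among all other genes tested, the 10 with the highest r to the mean log2 level of the 23 endothelial genes included Alas1 (0.95), Pld4 (0.95), Inpp5d (0.94), Ap2a1 (0.94), Slco3a1, Eftud2, Sez6l2, Clstn1 and Usp5 (0.92). For the 5 pericyte genes they were Alkbh7 (0.97), Tmed3 (0.96), Ndufs8 (0.96), Uqcc2, Lamtor2, Mdh1, Pfdn6, Imp3, Marc2 and Atg101 (0.95). Each of these 10 genes fell with the length contrast, with edgeR adjusted p from 0.000275 (Ndufs8) to 0.00651 (Mdh1). None of the genes named here stood on a list of vessel or neighbouring cells. Those lists are short, so a gene absent from them may still be expressed in such cells. The lists also hold few of the genes tested, so the absence of listed genes from the top 10 says little. The median r to the endothelial mean was 0.31 over 10 arterial genes, 0.33 over 9 smooth muscle genes, 0.36 over the 14 other pericyte genes and 0.64 over 10 microglial genes, and to the pericyte mean it was 0.17, 0.45, 0.22 and 0.67.

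Other genes of the vessel wall, from lists that hold none of the 38, had higher median spreads than the members on every list but 1, that of other barrier carriers, where it was equal after rounding (0.170). Vascular smooth muscle genes had a median spread of 0.346, and 9 of 9 tested reached a ratio of 2. Acta2, the actin of smooth muscle, ran from 5.26 CPM (m115) to 15.7 CPM (m61), and the summed level of the list from 52.8 CPM (m115) to 109 CPM (m61). Mylk alone gave 21.1 and 48.5 CPM of these sums. Acta2 fell with the length contrast (slope -0.98, edgeR adjusted p = 0.0183), which was 0.43 in m115 and -0.63 in m61. The pericyte members, at 166 CPM in m115 and 237 CPM in m61, had their lowest and highest sums in the same libraries. From m115 to m61 Vtn went from 40.9 to 79.7 CPM, Rgs5 from 91.9 to 123 CPM and Kcnj8 from 2.29 to 4.30 CPM. Pdgfrb (24.3 and 24.2 CPM) and Abcc9 (6.31 and 6.03 CPM) hardly differed, so the class did not move as a whole. The part of smooth muscle in this was not tested. The 14 other pericyte genes had a median spread of 0.260, and 10 reached a ratio of 2. Higd1b and Ndufa4l2, short pericyte genes, fell with the length contrast (slopes -1.20 and -1.44, edgeR adjusted p = 0.00626 and 0.000806), while Notch3, a receptor of mural cells, stayed between 12.3 and 20.04 CPM.

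On the length contrast, edgeR called 0 genes higher and 3 lower of 9 smooth muscle genes, 1 and 2 of 14 other pericyte genes, 1 and 3 of 10 arterial genes, and 0 and 2 of 6 venous genes. The counts were 1 and 1 of 10 ligands, 3 and 0 of 14 Wnt genes, and 4 and 1 of 20 other barrier genes, read against the same backgrounds of 18.1% and 14.9%. None of the 5 genes of activated or leaky endothelium was called. The 2 venous genes were Tmsb10 and Ackr1, and 25.7% of the exon length of Ackr1 overlaps another gene model on the same strand. Tmsb10 had a median of 125 CPM per kb, above that of every member (33.0 for Itm2a, the highest). How much of the Tmsb10 or Ackr1 signal came from venous endothelium was not tested. Of cells around or inside the vessels, the counts were 0 and 3 of 5 red blood cell genes and 0 and 4 of 10 microglial genes. They were 0 and 1 of 8 perivascular fibroblast genes, 1 and 0 of 10 endfoot genes, and 0 for the choroid plexus and border lists.

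Arterial genes had a median spread of 0.283 (7 of 10 with a ratio of 2) and venous genes 0.260 (6 of 6). Gja4, an arterial gap junction protein, and Gkn3, an arterial marker of brain, were both lowest in m57 and highest in m61, at 1.56 to 5.45 CPM and 2.74 to 6.29 CPM. Of the genes of activated or leaky endothelium, the selectins Sele and Selp reached no more than 0.0979 CPM (m74) and 0.0866 CPM (m57), where 3 counts were worth 0.0735 and 0.0866 CPM, and both had a median of 0. Plvap, a protein of fenestrated endothelium, ran from 7.91 CPM (m47) through 16.6 CPM to 22.0 CPM (m44), and Vcam1 from 13.4 to 26.3 CPM. The 5 genes of that list that were tested had a median spread of 0.201, and 2 reached a ratio of 2.

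Ligands of the vessel receptors had a median spread of 0.214 (4 of 10 with a ratio of 2). Vegfa, the ligand of Flt1 and Kdr, ran from 38.4 CPM (m61) to 71.7 CPM (m89). Vegfb, a ligand of Flt1, ran from 48.0 CPM (m47) to 95.6 CPM (m61) and fell with the length contrast (slope -0.83, edgeR adjusted p = 0.000160). Pdgfb, the ligand of Pdgfrb, ran from 16.1 CPM (m101) to 29.3 CPM (m61). Angpt1, the agonist of Tek, ran from 2.83 CPM (m83) to 6.75 CPM (m47) and rose with the contrast (slope 0.83, edgeR adjusted p = 0.0198). The 14 genes of vascular Wnt signalling had a median spread of 0.206, with Reck, a part of the Wnt7 receptor complex, between 4.30 CPM (m61) and 16.8 CPM (m47), and Lef1, a Wnt effector, among the steadiest (spread 0.0556). Among the 20 other barrier carriers and junction genes were Cav1, the coat protein of caveolae, with a spread of 0.0572, and Tfrc, the transferrin receptor, with 0.350.

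Markers of cells around or inside the vessels also had higher median spreads. The summed level of 5 red blood cell genes ran from 21.5 CPM (m115) to 72.9 CPM (m61), with a median spread of 0.424. Perivascular fibroblast genes ran from 42.6 CPM (m47) to 79.5 CPM (m57) (median spread 0.328), and genes of the meninges and brain borders from 51.4 CPM (m47) to 247 CPM (m57) (median spread 0.506). Ptgds alone gave 45.4 CPM (m47) and 235 CPM (m57) of the border sums, and no other gene of that list exceeded 4.28 CPM. The border sum thus describes Ptgds more than the list. Of the fibroblast sums, Igf2 alone gave 21.2 CPM (m47) and 41.1 CPM (m57). Microglial genes ran from 365 CPM (m47) to 614 CPM (m61) (median spread 0.211). Genes of astrocyte endfeet, which wrap the vessels, ran from 1604 CPM (m101) to 2740 CPM (m57) (median spread 0.195). Slc1a2 alone gave 1002 CPM (m101) and 1840 CPM (m57) of the endfoot sums, which thus describe Slc1a2 more than the list. Of the choroid plexus list 4 of 8 genes were tested (median spread 0.229), and Ttr, its defining marker, was between 0 and 0.224 CPM. Over the same libraries the sum of the 19 endothelial receptor and surface genes ran only from 324 CPM (m101) to 420 CPM (m61), and that of the 7 transporters from 268 CPM (m47) to 325 CPM (m49). Which share of the members' variation goes with these cells was not tested.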

How the data were processed

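RNA was measured in 11 libraries of nucleus accumbens shell, made with a stranded mRNA kit per the labels' protocols. The deposited table holds raw read counts per gene, made by the authors. Its genome build was mm10, and the tools were HTSeq 0.6.1, TopHat2 2.0.14 with Bowtie2 2.1.0, and bcl2fastq 2.17.1.14, all per the submitters' processing notes. Not given in the sources used here are the strand setting and the annotation release, and antisense, overlapping and near-identical genes are therefore uncertain. GENCODE M21 gave names, coordinates and exon lengths for 52403 of 52550 identifiers, and the other 147 held 0.0112 to 0.0214% of counts.

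CPM were computed with edgeR 4.0.16 (R 4.3.3). A gene was tested if its median count was 10 or more and 3 or more libraries reached 1 CPM. Spread is edgeR's dispersion per gene, with an intercept only and no sharing between genes. Log2 levels use a pseudocount of 0.5. Slopes on the length contrast and on the log2 mitochondrial share come from edgeR's quasi-likelihood fits on all 11 libraries, adjusted over all 15375 genes, with DESeq2 1.42.0 as an alternative. Whether the libraries came from separate mice rests on their animal codes, and p-values measure the spread between them. The steps were tested on simulated data of 11 libraries. Of genes given a slope of 1 in size at a spread of 0.2, 52.5% were called, against 0.0334% of genes given none. In the measured data smaller slopes passed at a similar spread, such as Egfl7 (-0.70, SE 0.16, spread 0.224) and Abcb1a (0.53, SE 0.17, spread 0.180). The 52.5% is therefore not the share found among the measured slopes, which was not tested. A slope that did not pass, or a list with 0 genes called, can still hide slopes. This holds most where the SE is large, as for Pglyrp1 (-0.55, SE 0.62), which did not pass. No 2 libraries agreed within counting noise (lowest chi-square per gene 14.4). Tables, sequences and figures were made with matplotlib 3.10.9, scipy 1.17.1, pandas 2.3.3 and numpy 2.4.6 in Python 3.11.15. Promoters are RefSeq's (GRCm38.p6).

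The members and lists were chosen with earlier results of these data known, the length contrast included. Named genes are all 38 members, and of each other list the most abundant tested gene, genes with a ratio of at least 2 and defining markers at or near 0, of which a selection made after their values were seen is printed. The 10 genes most like each class mean are named too, except 1 that is not reported here. The pairs of members named were chosen after their values were seen. Notch3, Lef1, Cav1, Vegfa and Pdgfb lie outside that rule and were chosen after their values were seen, and the list of neuron markers was added later than the others.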

Additional observations from a re-analysis of the deposited data

How the results depend on the processing

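Spreads, counts with a ratio of 2, class scores and pair medians were recomputed with DESeq2 size factors, without scaling, without the filter, with a pseudocount of 2 where it applied, and with each library left out. In these the levels, spreads and counts stayed within 1.5 times or within the spread between libraries, except for the count of members that move with the mitochondrial share, which ran from 0 to 5 over the leave-one-out fits and was 5 without m74. The cause was not tested. The count of members called on the length contrast was 9 with DESeq2 size factors and with the longest and shortest 20% of genes, 10 with DESeq2's Wald test (Kcnj8 added), 8 without scaling (Esam lost), 7 without the filter (Abcb1a and Esam lost) and 7 to 11 with each library left out. The shares of all genes called in these were 33.2%, 32.5%, 36.4%, 31.7%, 16.3% and 26.6 to 34.2%. None of the 9 slopes changed sign in any of these. Removing scaling moves all genes of m61 by -0.14 on the log2 scale. Of the named pairs, Kcnj8 and Abcc9 changed sign with the length contrast taken out (r = 0.095), and the median r over pairs within a class changed sign for 2 classes. With each library left out it ran from -0.40 (without m61) to 0.12 for pericyte genes, from -0.08 (without m101) to 0.17 (without m44) for barrier genes and from 0.08 (without m49) to 0.18 (without m61) for endothelial genes. Medians between classes changed sign too. Between barrier and pericyte genes the median ran from -0.11 to 0.06 with each library left out. Between endothelial and pericyte genes it ran from -0.02 to 0.14 over the other settings. No paired analysis was possible because the labels give no groups and no replicate numbers. Genes with few reads, Pglyrp1 and Nostrin, have the least precise levels.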
